A study of Homo sapiens with 50 samples.

Results

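The genes described here encode the kinetochore and the spindle assembly checkpoint, and comprise *BUB1*, *BUB1B*, *BUB3*, *MAD2L1*, *TTK*, *CENPA*, *CENPE*, *CENPF*, *NUF2* and *NDC80*. Every non-control feature of the array annotated with one of these 10 symbols was taken, which gave 12 features among 34127, with *BUB3* and *CENPF* each measured by 2 features. The 10 genes belong to 25940 gene names on the array. The study used the human lung tumour line H1299, derived from a non-small cell carcinoma and carrying normal RAD9, and H1299*shRAD9*, the same line stably carrying a retroviral short hairpin RNA against *RAD9*, a gene of the DNA damage checkpoint. Confluent cells on concentric Mylar dishes received a sham exposure or 1 Gy of α particles (4He ions) and RNA was taken at 4 h. Cells on the thin Mylar of a dish were traversed by the particles, whereas cells on the thick Mylar of the same dish were shielded and served as bystanders. RNA of each group was hybridised to 5 one-colour Agilent arrays, which made 50 arrays in 10 groups.

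The 5 groups of each line were named as follows. CTL cells were sham irradiated. DBP cells were directly irradiated and their bystanders had formed micronuclei above background, and BP cells were those bystanders. DBN cells were directly irradiated but their bystanders had micronuclei at background level only, and BN cells were those bystanders. The dishes were therefore selected by their micronucleus response, after which the labels count the 5 samples of a group as biological replicates. The H1299*shRAD9* cells came from 2 transfectants used interchangeably, and which of them gave a sample is not stated in the labels. The comparison line was untransfected H1299, so the hairpin, the vector and the isolation of transfectants cannot be told apart in any difference between the lines.

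A kinetochore is the protein assembly that forms on each centromere and holds the chromosome to spindle microtubules. Centromeric chromatin is marked by the histone variant CENPA, the NDC80 complex makes the main microtubule contact, and kinetochores without proper attachment recruit MPS1 (encoded by *TTK*), BUB1, BUBR1 (encoded by *BUB1B*), BUB3 and MAD2 to hold back the anaphase promoting complex until every chromosome is attached. Transcripts of most of these genes accumulate in G2 and mitosis, so that their level in a bulk culture reflects both how many cells are in those phases and how much RNA each such cell holds, and these 2 quantities cannot be told apart here.

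Promoter sequences are shown because members of the group moved together and their promoters are known for shared cell cycle elements. RefSeq promoters (build GRCh38.p14, from 250 bases before to 50 bases after the start) were found for 8 of the 10 genes, all but *BUB3* and *TTK*, and were searched on both strands. The core of the cell cycle genes homology region, TTTGAA, occurred in 6 of the 8, namely *BUB1B*, *CENPA*, *CENPF*, *MAD2L1*, *NDC80* and *NUF2*, and in 15.2% of all 35116 promoters of this length. CCAAT occurred in 4 of the 8 and in 34.6% of all promoters. An E2F core, TTCGCG or GCGCGA, occurred in 3 of the 8 and in 16% of all promoters, the 2 forms overlapping each other in *MAD2L1*. The 150 bases before the start are given below for *CENPA*, *BUB1B* and *CENPF*, some of the members called below whose promoters held matches. They are also given for *CENPE*, a called member in which no match was found. Matches are in capitals, and CCAAT of the minus strand is read as ATTGG. The promoter of *NDC80*, also called below, held TTTGAA on the reverse strand and GCGCGA, and is not printed.
*CENPA*, chr2:26785906-26786055, plus strand: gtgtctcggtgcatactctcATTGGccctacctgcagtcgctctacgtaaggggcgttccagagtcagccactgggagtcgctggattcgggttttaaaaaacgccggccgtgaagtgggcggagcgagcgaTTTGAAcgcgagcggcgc
*BUB1B*, chr15:40160919-40161068, plus strand: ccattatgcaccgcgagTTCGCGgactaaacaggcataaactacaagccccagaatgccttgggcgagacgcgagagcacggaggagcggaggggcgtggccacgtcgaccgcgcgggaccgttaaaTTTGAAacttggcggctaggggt
*CENPF*, chr1:214603045-214603194, plus strand: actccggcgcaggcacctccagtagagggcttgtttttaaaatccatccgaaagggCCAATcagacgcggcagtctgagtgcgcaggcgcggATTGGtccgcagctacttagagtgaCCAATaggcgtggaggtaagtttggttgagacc
*CENPE*, chr4:103198344-103198493, minus strand: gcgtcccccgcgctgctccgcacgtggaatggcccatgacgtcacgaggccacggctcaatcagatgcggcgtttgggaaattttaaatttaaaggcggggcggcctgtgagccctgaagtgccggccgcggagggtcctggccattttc
In *CENPA* the capitals are ATTGG and TTTGAA, the second beginning 18 bases before the start. In *BUB1B* they are TTCGCG and TTTGAA, the second beginning 23 bases before the start. In *CENPF* they are 2 copies of CCAAT with 1 of ATTGG between them, and the TTTGAA of this gene lay 41 bases after the start, outside the stretch printed.

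Levels are given as log2 processed intensity minus the median of the array, so that 0 is the median probe and values of different probes are not compared. Between 55.2% and 83.3% of probes were well above background on an array, the highest share on H1299 DBN replicate 1, where the other 4 arrays of the group lay between 62.5% and 68.9%. All 12 features were well above background and unsaturated on all 50 arrays, except that the *CENPF* feature A_24_P96780 was an outlier spot on H1299*shRAD9* CTL replicate 2, and every fit of that feature drops this array. The *CENPE* feature had 10 spots on an array and every other member feature had 1. The part of this in which members were called was not tested. Of 34127 features, 20079 passed a background criterion and 12186 of these also varied by at least 1.3-fold from their median on at least 20% of arrays. All 12 features passed the first criterion, and 7 features of 6 genes (*BUB3* with 2, *TTK*, *CENPA*, *CENPE*, *CENPF* A_24_P96780 and *NDC80*) passed both. A feature was called when p in limma was under 0.006 (0.005 between lines) with a false discovery rate under 10%. Values of *BUB1*, *BUB1B*, *MAD2L1*, *NUF2* and *CENPF* A_23_P401 come from the limma fit on all 20079 features. The target of the hairpin, *RAD9A*, measured 3.65 ± 0.19 in H1299*shRAD9* CTL and 4.01 ± 0.13 in H1299 CTL (SD, n = 5), a log2 difference of -0.36 ± 0.12 (SE), or 77.9% of the H1299 level. It was not called, since its unadjusted p in limma, 0.00978, was above 0.005 (adjusted p = 0.0561). The study chose its clones by a reduction of RAD9 protein on Western blots, which an RNA level does not measure. *KRT8*, *KRT18*, *KRT19* and *VIM*, keratin and vimentin genes taken as markers of the line, were well above background on all 50 arrays and *FN1* on 1. None of 6 fibroblast genes was so on all arrays, while of 4 leukocyte genes *PTPRC* and *ITGAM* were, *ITGAM* ranging from -0.45 to 7.94 over arrays.

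**Figure D1:**
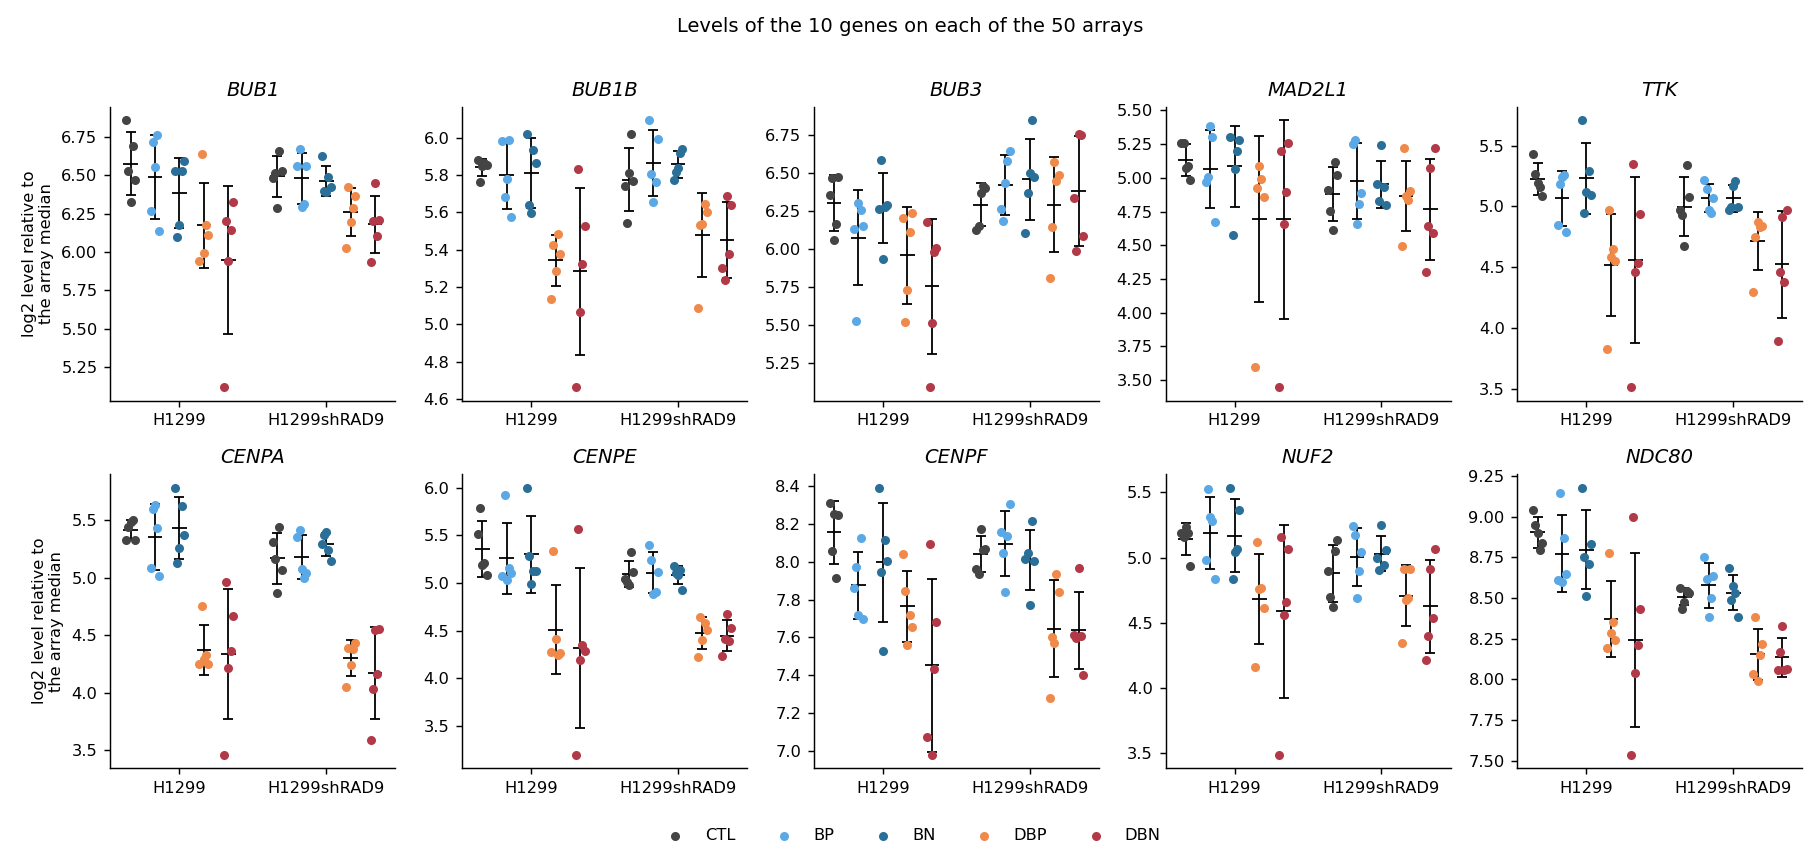
Level of each of the 10 genes (brightest feature, log2 processed intensity minus the array median) on the 50 arrays, by group; each point is 1 array, and lines with bars are the mean and SD of 5. CENPA in the directly irradiated DBP and DBN groups lies between 3.46 and 4.97, and in all other groups between 4.87 and 5.79, whereas within each line every pair of BUB3 groups overlaps.

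In unirradiated cells the question was whether the members differed between the lines. Most members were somewhat lower in H1299*shRAD9* CTL than in H1299 CTL, with a median over the 10 genes of -0.24 on the log2 scale where all 20079 features had a median of 0.06 (-0.37 and -0.06 with normexp background correction). Only 1 of the 7 features tested under both criteria was called, the *CENPF* feature A_24_P96780, against 15.5% of the 12186 features (7.65% lower). CENPF is a large protein of the nuclear matrix and outer kinetochore. Its A_24_P96780 feature read 2.54, 2.25, 2.48 and 2.57 in H1299*shRAD9* CTL replicates 1, 3, 4 and 5 and 2.94, 3.03, 3.03, 2.91 and 3.08 in H1299 CTL. The ranges did not overlap, and the log2 difference was -0.54 ± 0.14 (SE, adjusted p = 0.0216). The other *CENPF* feature, A_23_P401, overlapped between the lines (7.94 to 8.17 against 7.92 to 8.31) with a difference of -0.12 ± 0.11 (adjusted p = 0.468). The 2 features read different places of one transcript, and the probe that differed lies at hg19 chr1:214826239-214826298 on the plus strand with the following sequence, shown because the difference between the lines rests on it.
*CENPF* A_24_P96780: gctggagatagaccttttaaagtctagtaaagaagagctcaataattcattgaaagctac

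*NDC80*, the microtubule-binding subunit that names its complex, read 8.56, 8.43, 8.48, 8.54 and 8.53 in H1299*shRAD9* CTL and 9.04, 8.95, 8.90, 8.79 and 8.84 in H1299 CTL. These ranges did not overlap either, but the difference of -0.39 ± 0.12 was not called under both criteria. It was called in the fit without the 1.3-fold criterion (adjusted p = 0.0174), where 13% of features were called, and with quantile normalization, normexp or the authors' values. Lower ranges without overlap were thus found in 2 of 12 member features and in 6.08% of all features, and 2 of 12 reached an unadjusted p under 0.05, as 33.9% of all features did. *CENPA* differed by -0.25 ± 0.14 (adjusted p = 0.207) and *CENPE* by -0.26 ± 0.16 (adjusted p = 0.241), neither of which passed. Arrays of the 2 control groups shared no slide, and with the slide as a random block the *CENPF* difference was -0.51 and was no longer called.

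In directly irradiated H1299*shRAD9* cells *CENPA* and *CENPE* were called lower under both criteria. *CENPA*, the histone H3 variant that marks the centromere, fell in both directly irradiated groups to about 50.2% to 54.7% of the control level. *CENPE*, the kinesin that carries chromosomes to the spindle equator, also fell in both, to 63.9% and 65%. These were 2 of the 7 features tested in each comparison, against 1.78% of all features called in DBP and 4.85% in DBN, of which lower calls made up 0.771% and 1.42% of features. None of the members was called higher. Ranges below CTL without overlap were found in 4 of 12 member features in DBP and 3 of 12 in DBN, against 0.603% and 0.882% of all features.

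*CENPA* read 5.31, 5.16, 4.87, 5.45 and 5.07 in H1299*shRAD9* CTL replicates 1 to 5. In DBP it read 4.05, 4.39, 4.24, 4.39 and 4.43, and in DBN 3.59, 4.03, 4.55, 4.16 and 4.55. Every directly irradiated array was thus below every control array. The log2 difference from CTL was -0.87 ± 0.12 in DBP (SE, adjusted p = 0.0527) and -1.00 ± 0.20 in DBN (adjusted p = 0.0618), lower in 5 of 5 pairs of the same replicate number in each.

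*CENPE* read 5.04, 5.01, 4.98, 5.32 and 5.12 in CTL. It read 4.23, 4.65, 4.40, 4.58 and 4.51 in DBP and 4.23, 4.41, 4.68, 4.39 and 4.53 in DBN. All 10 directly irradiated arrays again lay below all 5 controls. The differences were -0.62 ± 0.10 (adjusted p = 0.0788) and -0.65 ± 0.12 (adjusted p = 0.0547). These calls in DBP and DBN depended on single replicates, since leaving out replicate 2, 3, 4 or 5 left no member called in DBP and leaving out replicate 1, 2, 3 or 4 left none in DBN, and with the slide as a block no member was called in either (*CENPA* -0.71 with adjusted p = 0.532 in DBP and -1.65 with adjusted p = 0.212 in DBN). Within the slides that held both groups *CENPA* differed by -0.77 and -0.63 in DBP (2 slides) and by -1.65 in DBN (1 slide).

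Of the microtubule-binding members, *NDC80* and *NUF2* did not pass the test. *NDC80* read 8.03, 8.38, 7.99, 8.15 and 8.22 in DBP and 8.06, 8.17, 8.33, 8.06 and 8.06 in DBN. Each of these lay below the lowest control, 8.43, and the differences were -0.35 ± 0.11 (adjusted p = 0.181) and -0.37 ± 0.10 (adjusted p = 0.12). *NUF2*, the partner of NDC80 within the complex, overlapped with CTL in both groups and differed by -0.17 ± 0.12 and -0.25 ± 0.14. *CENPF* A_23_P401 differed by -0.39 ± 0.11 in DBP and by -0.40 ± 0.10 in DBN, and the second passed in the fit without the 1.3-fold criterion, where 2.93% of features were called. The weaker *CENPF* feature, which lacked 1 control array, differed by -0.18 ± 0.15 and 0.04 ± 0.13.

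Among the checkpoint kinases and their partners no member was called in either H1299*shRAD9* comparison. *BUB1*, which phosphorylates histone H2A at the centromere, differed by -0.23 ± 0.09 in DBP and -0.31 ± 0.12 in DBN. *BUB1B*, whose product BUBR1 is part of the mitotic checkpoint complex, differed by -0.30 ± 0.11 and -0.33 ± 0.10. *TTK*, the kinase that starts checkpoint signalling, differed by -0.28 ± 0.14 and -0.47 ± 0.20. *MAD2L1*, which binds CDC20, and *BUB3*, which docks BUB1 and BUBR1 at the kinetochore, differed by less than their errors, *MAD2L1* by -0.02 ± 0.14 and -0.11 ± 0.17 and the 2 *BUB3* features by values from -0.11 to 0.09. Over the 10 genes the median was -0.29 in DBP and -0.35 in DBN, with 9 of 10 genes lower in each, where all features had medians of 0.03 and -0.01. At an unadjusted p under 0.05, 6 of the 12 features passed in DBP and 7 in DBN, against 13.9% and 14.3% of all features.

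**Figure D2:**
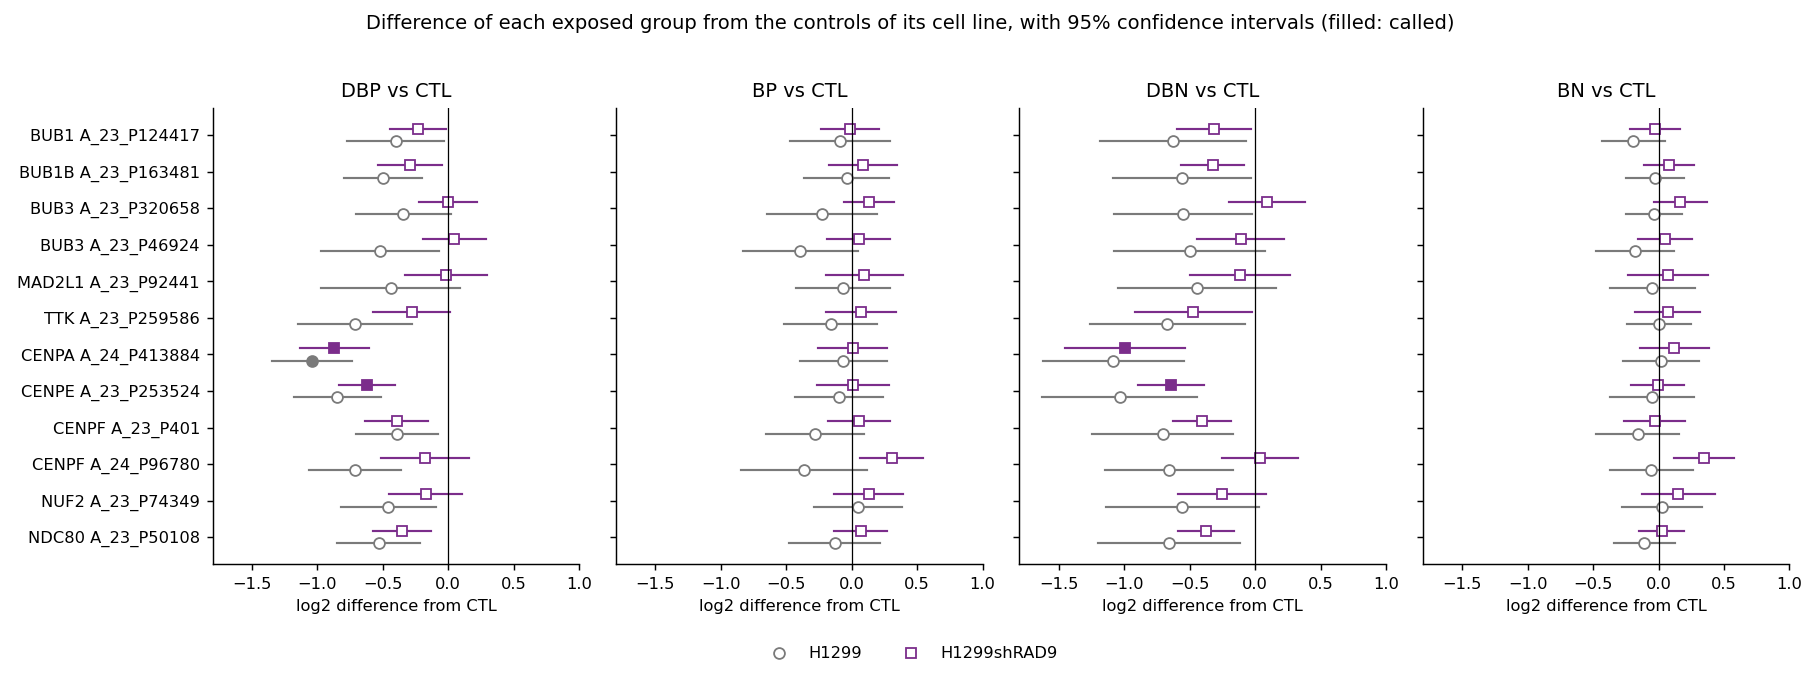
Log2 difference from sham-irradiated controls for the 12 features in the DBP, BP, DBN and BN groups of both lines, with 95% intervals; filled points were called. CENPA and CENPE lie furthest below 0 in both directly irradiated groups of each line, and the bystander groups lie around 0.

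Bystander cells of H1299*shRAD9* showed no called member. In BP and BN, 0 of 7 features were called where 2.34% and 0.0492% of all features were, and 1 of 12 features in each reached an unadjusted p under 0.05, against 10.8% and 13.5% of all features. That feature was *CENPF* A_24_P96780, which read from 2.70 to 2.84 in BP and from 2.73 to 3.16 in BN, above all 4 measured controls (2.25 to 2.57), as 1.01% and 1.41% of all features were. Its differences were 0.30 ± 0.11 (adjusted p = 0.321) and 0.35 ± 0.11 (adjusted p = 0.235). *CENPA* read 5.36, 5.42, 5.08, 5.00 and 5.05 in BP and 5.29, 5.37, 5.40, 5.25 and 5.15 in BN. Both ranges overlapped with CTL, and the differences were 0.01 ± 0.12 and 0.12 ± 0.12. Their 95% intervals, from -0.25 to 0.27 and from -0.14 to 0.38, held no change of the size seen in the directly irradiated cells. *CENPE* differed by 0.01 ± 0.13 and -0.01 ± 0.10. The median over the 10 genes was 0.07 in each, against 0.02 and 0.00 over all features.

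Taking the arrays of H1299*shRAD9* as directly irradiated or not, 3 members separated fully. For *CENPA* the 10 directly irradiated arrays lay between 3.59 and 4.55 and the 15 control and bystander arrays between 4.87 and 5.45. For *CENPE* the same ranges were 4.23 to 4.68 and 4.88 to 5.39. For *NDC80* they were 7.99 to 8.38 and 8.39 to 8.75, which nearly touched. Such a separation toward lower levels was found in 24 of 20079 features, or 0.12%.

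The direct and bystander cells of one kind of dish were compared next. They were paired by replicate number, since the study's methods match them, and whether samples of one number came from the same dish is not stated in the labels. In H1299*shRAD9*, *CENPA* fell in DBN relative to BN by 1.11 ± 0.16 on the log2 scale (adjusted p = 0.0616), to 46.2% of the bystander level, in 5 of 5 pairs. It was the only member called of 7 tested, where 0.131% of all features were called. In DBP relative to BP *CENPA* differed by -0.88 ± 0.13 (adjusted p = 0.1), also in 5 of 5 pairs and just short of the call, so that 0 members were called where 0.0985% of features were. It passed without the 1.3-fold criterion (adjusted p = 0.091, 0.0797% of features called). At an unadjusted p under 0.05, 7 of 12 features passed in DBP against BP and 9 of 12 in DBN against BN, where 4.16% and 2.24% of all features did. In each of these comparisons 6 of 12 member features (*CENPA*, *CENPE*, *NDC80*, *BUB1B*, *TTK* and *CENPF* A_24_P96780) lay below the bystanders without overlap, against 0.354% and 0.339% of all features. Some of these ranges nearly touched. The highest DBN and the lowest BN value of *TTK* were both 4.97. The highest DBP and lowest BP values were 8.38 and 8.39 for *NDC80* and 5.64 and 5.66 for *BUB1B*. Within single slides *CENPA* differed by -1.19 to -0.61 in DBP (4 slides) and by -1.70 to -0.97 in DBN (3 slides), and with the slide as a block the DBN difference was -1.24 (adjusted p = 0.0689) and remained called. Without replicate 1, 2, 3 or 4 it was no longer called, the differences then being from -1.18 to -0.97.

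Both kinds of dish were then joined, which gave 10 pairs of direct and bystander cells in each line. This comparison was chosen after the single comparisons had been seen. The 2 kinds of dish carry the same replicate numbers, and the pair differences of one number correlated by 0.03 on average in H1299*shRAD9* and by 0.32 in H1299, so the fit was repeated on 5 pairs after averaging both kinds. In the fit on 20079 features, 6 of the 12 member features, of 5 genes, were lower and called in H1299*shRAD9*, where 0.767% of all features were called and 0.692% were called lower. Under both criteria 4 of 7 were called, against 1.16% of features. *CENPA* differed by -1.00 ± 0.11 (adjusted p = 0.000267), *CENPE* by -0.64 ± 0.08 (adjusted p = 0.00176) and *NDC80* by -0.41 ± 0.06 (adjusted p = 0.00465), each lower in 10 of 10 pairs. *BUB1B* differed by -0.39 ± 0.08 (adjusted p = 0.0576) and was lower in 10 of 10 pairs. The 2 *CENPF* features gave -0.42 ± 0.08 (A_24_P96780, adjusted p = 0.0385) and -0.41 ± 0.09 (A_23_P401, adjusted p = 0.0535), and so behaved alike in this comparison.

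The array values of *BUB1B* show the size of this difference against the spread. In H1299*shRAD9* it read 5.09, 5.53, 5.54, 5.64 and 5.60 in DBP against 6.09, 5.81, 5.66, 5.76 and 5.99 in BP. It read 5.30, 5.24, 5.69, 5.38 and 5.64 in DBN against 5.77, 5.82, 5.84, 5.92 and 5.94 in BN. The highest directly irradiated array of either kind, 5.69, stood just above the lowest bystander array, 5.66, whereas within each kind of dish the groups did not overlap.

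The remaining members did not pass in the 10 pairs. *TTK* was lower in 10 of 10 pairs (-0.45 ± 0.11, adjusted p = 0.12), *NUF2* in 9 (-0.35 ± 0.09, adjusted p = 0.168) and *BUB1* in 9 (-0.25 ± 0.07, adjusted p = 0.301). *MAD2L1* was lower in 6 of 10 pairs (-0.15 ± 0.10). The *BUB3* features were lower in 7 and 5 of 10 (-0.10 ± 0.08 and -0.08 ± 0.09). With the 2 kinds of dish averaged into 5 pairs, *CENPA* (adjusted p = 0.0126) and *CENPE* (adjusted p = 0.0494) were called, where 0.274% of features were, and the other members were not. Under both criteria these were 2 of 7, against 0.468% of features.

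**Figure D3:**
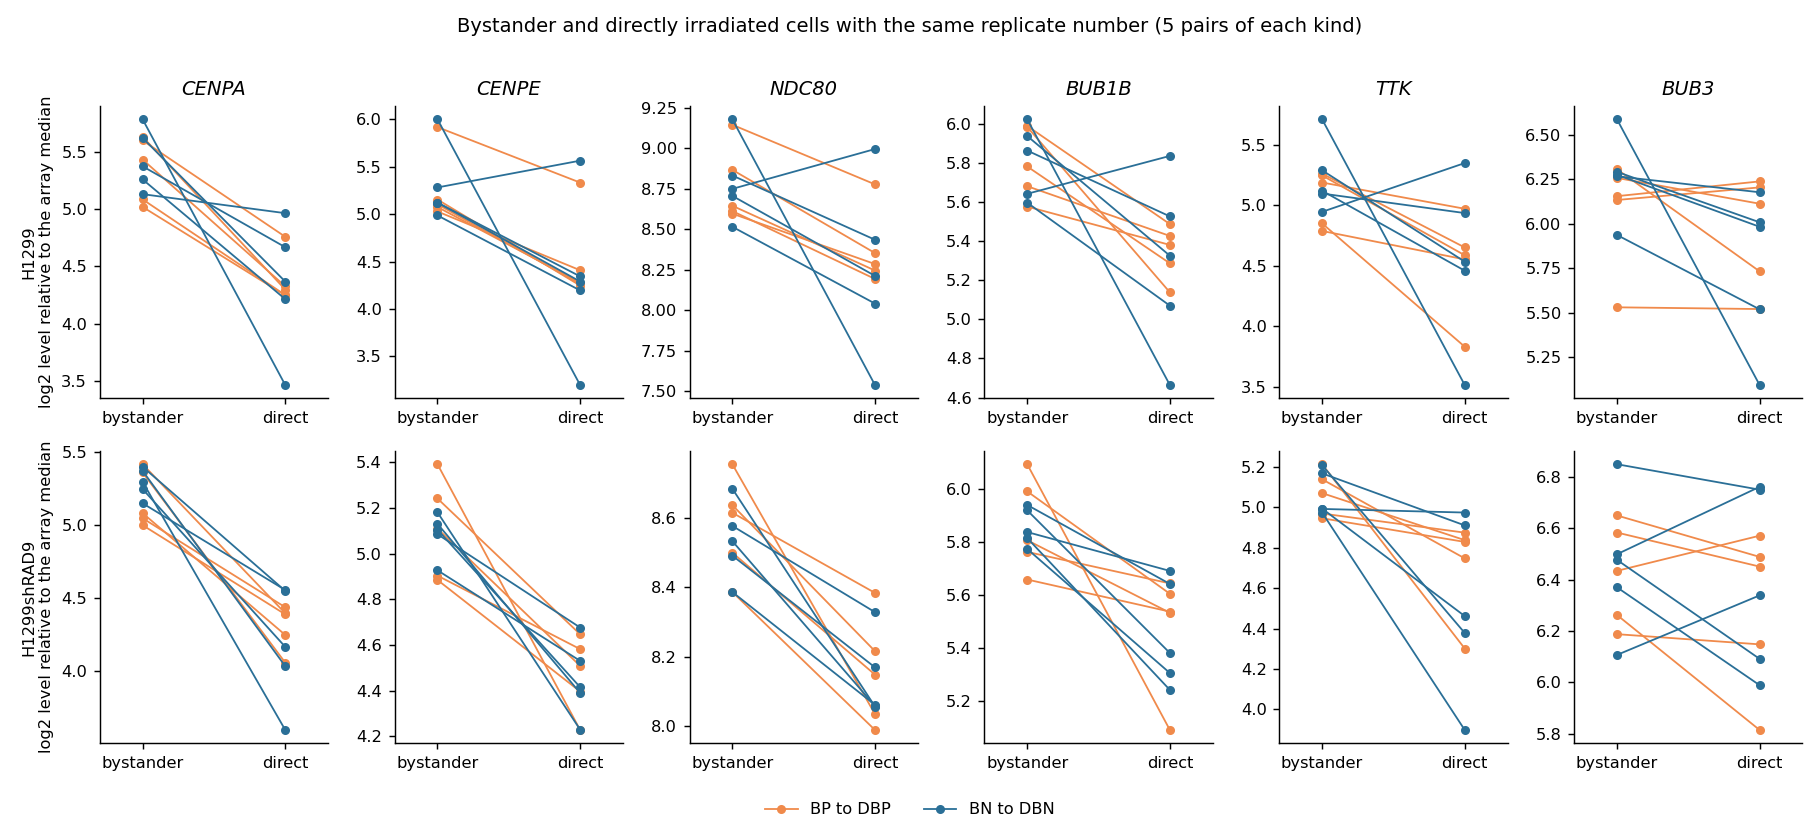
Level (log2 processed intensity minus the array median) in bystander and directly irradiated cells joined by replicate number, for CENPA, CENPE, NDC80, BUB1B, TTK and BUB3 in each line, with 5 pairs of each kind of dish. Every CENPA line runs downward from bystander to directly irradiated cells in both lines, while the BUB3 lines run both ways.

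H1299 cells with normal RAD9 showed member differences of similar or larger size with a wider spread. *CENPA* was called in DBP against CTL, 1 of 7 features where 0.0574% of all features were. It read 5.33, 5.45, 5.49, 5.50 and 5.33 in CTL and 4.25, 4.76, 4.30, 4.33 and 4.25 in DBP. The groups did not overlap (5 of 12 member features against 0.692% of all), and *CENPA* fell to 48.5% of control (-1.04 ± 0.15, adjusted p = 0.0959). This call was lost when any replicate was left out. It was also lost with the slide as a block (-1.01, adjusted p = 0.51), although *CENPA* was lower on each of the 4 slides that held both groups, by -1.19 to -0.69 in log2. The other members had values below 0 that were not called, from -0.34 ± 0.17 for *BUB3* A_23_P320658 to -0.85 ± 0.16 for *CENPE* (adjusted p = 0.234), and 10 of 12 features reached an unadjusted p under 0.05, against 5.57% of all features.

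In H1299 DBN no member was called where 0.0164% of all features were, although 9 of 12 features reached an unadjusted p under 0.05, against 3.25% of all features. *CENPA* read 3.46, 4.97, 4.21, 4.37 and 4.67 there and differed from CTL by -1.08 ± 0.26 (adjusted p = 0.647). *CENPE* read 3.20, 5.56, 4.20, 4.34 and 4.29 against 5.51, 5.79, 5.18, 5.21 and 5.08 in CTL and differed by -1.04 ± 0.30 (adjusted p = 0.911). Replicate 1 was the lowest of the 5 for 9 of 12 features, and replicate 2 was the highest for 7. Replicate 1 was the array with 83.3% of probes well above background, and the part of this in the low values was not tested. Without replicate 1 *CENPA* differed by -0.89 and *CENPE* by -0.72. With the other 4 replicates *NDC80* differed by -0.45, against -0.66 with all 5.

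The bystander groups of H1299 held no called member, where 0% of features were called in BP and 0% in BN. At an unadjusted p under 0.05, 0 of 12 features passed in each, against 5.68% and 3.42% of all features. *CENPA* read 5.09, 5.60, 5.63, 5.43 and 5.02 in BP and 5.79, 5.13, 5.26, 5.62 and 5.38 in BN, both overlapping with CTL. The differences were -0.06 ± 0.18 and 0.02 ± 0.14. The median over the 10 genes was -0.09 in BP and -0.04 in BN, and both medians turned slightly positive with quantile normalization (0.01 and 0.03). With normexp background correction they were -0.29 and -0.91, all features then being at -0.18 and -0.64. It was -0.48 in DBP and -0.64 in DBN, with 10 of 10 genes lower, where all features had medians of 0.02 and -0.10, and with normexp the DBP median was -0.81, all features then being at -0.20.

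Between direct and bystander cells of H1299, 0 of 7 features were called in either kind of dish, where 0% of all features were. At an unadjusted p under 0.05, 7 of 12 features passed in DBP against BP and 4 of 12 in DBN against BN, where 6.94% and 2.7% of all features did. *CENPA* differed by -0.98 ± 0.15 and -1.10 ± 0.30, lower in 5 of 5 pairs each time. Without replicate 1 the DBN difference of *CENPA* was -0.79 and that of *CENPE* was -0.53 in place of -0.98. Under normexp background correction all features moved up by a median of 0.49 in DBN against BN, and only 2 of the 10 genes were then lower, with a median of 0.31, which is below that of all features. In the 10 pairs *CENPA* was called (-1.04 ± 0.16, adjusted p = 0.0184, lower in 10 of 10 pairs), where 0.204% of features were and 0.189% were called lower. Under both criteria it was 1 of 7, against 0.312% of features. *CENPE* differed by -0.87 ± 0.21 (adjusted p = 0.201) and *TTK* by -0.61 ± 0.19 (adjusted p = 0.605), each lower in 9 of 10 pairs. In the 5 averaged pairs no member was called (*CENPA* adjusted p = 0.202, with 0.0149% of features called, or 0.00821% under both criteria), and 9 of 12 features reached an unadjusted p under 0.05, against 3.04% of all features. Of the members, *CENPA* separated all 10 directly irradiated arrays of H1299 (3.46 to 4.97) from all 15 others (5.02 to 5.79), as 0.0398% of features did.

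Whether the response of a member differed between the lines was tested as the difference of the 2 responses. In the 4 such tests, for DBP, BP, DBN and BN against CTL, 0 of 7 member features were called and 0 of 12186 features in all. At an unadjusted p under 0.05, 2, 1, 2 and 1 of the 12 features passed, against 7.74%, 6.51%, 7.05% and 7.3% of all features. For *CENPA* the response of H1299*shRAD9* minus that of H1299 was 0.17 ± 0.18 in DBP and 0.09 ± 0.33 in DBN, with 95% intervals from -0.20 to 0.54 and from -0.59 to 0.76. For *CENPE* it was 0.23 ± 0.18 and 0.39 ± 0.33. The largest of the 48 member values was that of *CENPF* A_24_P96780 in DBN, at 0.69 ± 0.25 (adjusted p = 0.313). The calls in H1299*shRAD9* that were absent in H1299 are therefore not a measured difference between the lines.

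Whether the bystanders formed micronuclei above background was not accompanied by a called difference in any member. Between BP and BN and between DBP and DBN, 0 of 7 features were called in either line where 0% of all features were, and 0 of 12 reached an unadjusted p under 0.05 in any of the 4 comparisons. Of all features, 0.364% (BP and BN) and 0.473% (DBP and DBN) did so in H1299*shRAD9*, and 1.52% and 0.498% in H1299. In H1299*shRAD9* *CENPA* differed by -0.11 ± 0.13 between BP and BN (95% interval from -0.36 to 0.14) and by 0.13 ± 0.20 between DBP and DBN (95% interval from -0.27 to 0.52). In H1299 the same differences were -0.08 ± 0.20 and 0.04 ± 0.29. Samples of one number deviated together between DBP and DBN, so the fit was repeated with replicate number as a block, an alternative chosen after seeing the data. Again 0 of 12 features reached an unadjusted p under 0.05 in any of the 4, against 0.926% and 1.49% of all features in H1299*shRAD9* and 3.21% and 4.04% in H1299. The interval of *CENPA* between DBP and DBN was then from -0.19 to 0.44 in H1299*shRAD9* and from -0.39 to 0.47 in H1299.

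The members varied together across arrays with the exception of *BUB3*. Over the 50 arrays the 36 pairs among the other 9 genes had correlations from 0.37 to 0.93 with a median of 0.81, the highest between *CENPE* and *NDC80*. The correlations of *BUB3* with the 9 ran from -0.11 to 0.34 with a median of 0.08. The points share arrays, slides and groups, so these values are a description. Of 10372 genes compared, those most like the mean of the 10 members included *STK17B* (r = 0.912), *ASPM* (0.911), *KIF23* (0.91) and *KIF18A* (0.91). *ASPM* encodes a spindle pole protein, and *KIF23* and *KIF18A* mitotic kinesins.

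Other genes of the kinetochore and checkpoint were taken from lists chosen by function. Few of them were called. In H1299*shRAD9* DBP against CTL these were 1 of 7 CENPA loading genes, 1 of 4 chromosomal passenger genes and 1 of 12 checkpoint regulators. In DBN they were 1 of 7, 1 of 4 and 1 of 11 outer kinetochore genes. None of 16 inner kinetochore genes was called in either, with medians of 0.03 and -0.04. *HJURP*, the chaperone that deposits CENPA, fell in H1299*shRAD9* by 0.85 ± 0.11 in DBP and by 0.84 ± 0.09 in DBN against CTL (adjusted p = 0.0351 and 0.022). *CDCA8*, which encodes the passenger protein borealin, fell by 0.81 ± 0.09 and by 0.83 ± 0.09 (adjusted p = 0.0257 and 0.0236). *SGOL2*, a shugoshin that protects centromeric cohesion, fell by 0.56 ± 0.11 in DBP (adjusted p = 0.0857), and *SKA3*, of the outer kinetochore, fell by 0.41 ± 0.09 in DBN (adjusted p = 0.0945). In these fits 1.3% and 2.93% of 20079 features were called.

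In the 10 pairs of direct and bystander cells the lists were counted in both lines. Of all features, 0.767% were called in H1299*shRAD9* and 0.204% in H1299. These calls treat the 10 pairs as independent, although pair differences of one number correlated by 0.32 on average in H1299. In the 5 averaged pairs 55 of 20079 features were called in H1299*shRAD9* and 3 in H1299. Most of the 41 features called in the 10 pairs of H1299 were therefore not called there. Of the CENPA loading genes *HJURP* was lower and called in both (-0.80 ± 0.07 in H1299*shRAD9* and -0.71 ± 0.14 in H1299). Of the 4 passenger genes *CDCA8* was called in both (-0.78 ± 0.06 and -0.87 ± 0.13), with list medians of -0.33 and -0.33. Of 12 checkpoint regulators *SGOL2* was called in both (-0.64 ± 0.12 and -0.78 ± 0.16), and of 17 genes around the anaphase promoting complex *ESPL1*, which encodes separase, was called in H1299*shRAD9* (-0.32 ± 0.06). None of 16 inner and 11 outer kinetochore genes was called in either line. At an unadjusted p under 0.05, 1 inner and 1 outer gene passed in H1299*shRAD9* and 2 and 1 in H1299, where 5.19% and 4.98% of all features did. The list medians were -0.02 and -0.04 in H1299*shRAD9*, so that the constitutive inner kinetochore and the further outer subunits stayed near the median of all features, which was 0.00. In H1299 they were -0.12 and -0.13, against -0.01 over all features.

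For reference, 41 other genes of G2 and mitosis and 42 genes of S phase were counted in the same fits. Of the former, 18 were lower and called in H1299*shRAD9* and 7 in H1299, where 0.692% and 0.189% of all features were called lower. The limit of the 10 pairs given above holds for these calls too. The medians were -0.29 and -0.43, against -0.40 and -0.49 over the 10 members. Of the S phase genes none was called in either line, the medians being 0.06 and -0.03. At an unadjusted p under 0.05, 3 and 1 of 42 passed, against 5.19% and 4.98% of all features. Between the control lines 3 of the 41 other G2 and mitosis genes were called lower and 3 of the 42 S phase genes higher. Over all features, 2605 of 20079 (13%) were called there, 1219 of them lower, so these list counts are near that share. From the kinetochore and checkpoint lists, 1 of 12 checkpoint regulators and 2 of 16 inner kinetochore genes were called there, against the same 13%. None of 11 outer kinetochore, 7 CENPA loading, 4 passenger and 17 anaphase promoting complex genes was called. *MAD1L1*, the partner of MAD2 at the kinetochore, was lower in H1299*shRAD9* (-0.59 ± 0.14, adjusted p = 0.02). The 2 inner kinetochore genes were higher, *STRA13*, whose transcript RefSeq names *CENPX* (0.68 ± 0.17), and *CENPK* (0.56 ± 0.11). The lists were chosen with earlier results of these data known, and their counts describe these arrays.

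**Figure D4:**
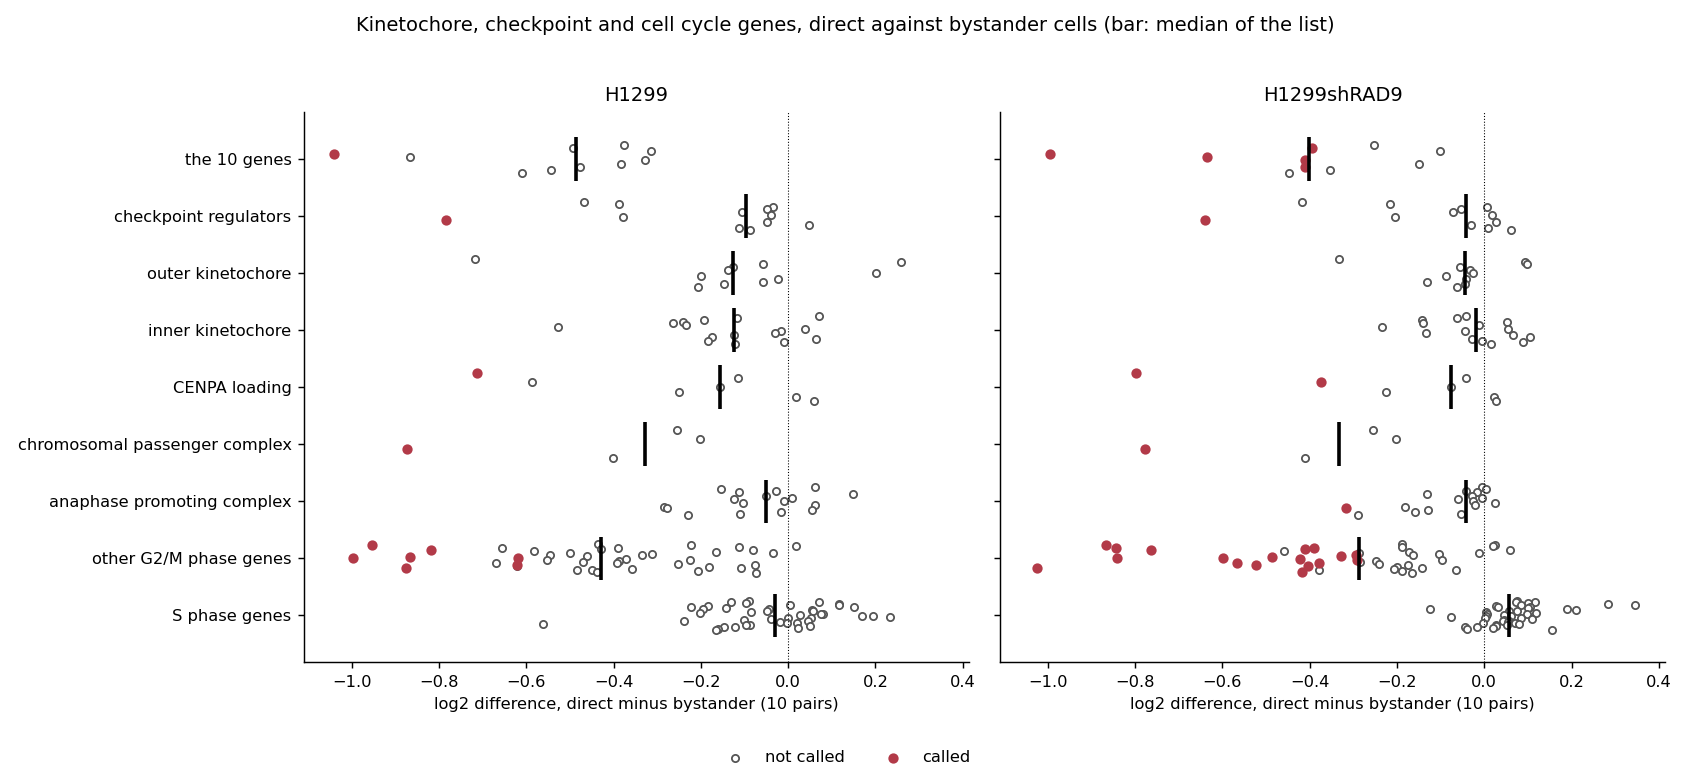
Log2 difference between directly irradiated and bystander cells in 10 pairs for each gene of the members and 8 further lists, in both lines; each point is 1 gene, red points were called, and bars mark the list median. The medians of the members and of the other G2/M genes lie between -0.49 and -0.29. Those of the inner and outer kinetochore, anaphase promoting complex and S phase genes lie between -0.13 and 0.06.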

How the data were processed

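Total RNA of each sample was hybridised to an Agilent human whole genome array (design positions in hg19). The deposited scanner files hold processed signal intensity per spot, which per the file headers had been background-subtracted and detrended within the array by Feature Extraction 11.5.1.1, with no scaling between arrays. The authors' processed table holds log2 values of 9502 features, and served as an alternative (r from 0.9994 to 0.99999 with the scanner log2 values, column medians 8.86 to 9.30, centring not stated).

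From the intensities, outlier spots were dropped, log2 spots of a probe averaged, and the array median over 34127 non-control probes subtracted. A feature was kept where fewer than 25% of arrays were outlier or not well above background, which left 20079, and for the main fits where at least 20% of arrays differed 1.3-fold from the feature median, which left 12186. Groups were compared in 21 comparisons with limma 3.58.1 (lmFit and eBayes, R 4.3.3), tested on simulated data beforehand, and p-values were adjusted by Benjamini-Hochberg over all features tested. Following the study's methods, replicate number was a block in exposed against CTL and direct against bystander comparisons, and line with number in the tests of a difference between lines. Same-numbered samples deviated together in every such H1299*shRAD9* comparison (lowest r over pairs 0.21 to 0.41). In H1299 they did in DBP and BN against CTL, and not in every pair of the others (lowest r from -0.21 to 0.09). Between DBP and DBN, fitted without a block, they did in both lines (lowest r 0.26 and 0.50), and not in every pair between BP and BN. No pair of arrays looked like one library (highest r 0.996). Each value rests on 5 arrays per group, and their number limits the precision. Lists were counted by the brightest feature of a gene.

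Named genes were the 10 members, *RAD9A*, up to 3 called genes in each direction per list and comparison, and the 5 genes most like the members' mean. One gene named by this rule is not reported here. Members, lists and tests were chosen with earlier results of these data known. The 13 slides, the scaling, background correction, filters, pooled fits, random-variance test and each replicate left out were alternatives. The files hold no annotation of exons in hg19, so the place of probes within transcripts is not given here.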

Additional observations from a re-analysis of the deposited data

Results flagged for a closer look

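Of 119 sets of 5 arrays (a member feature in a group), 11 held an array set apart from the other 4, its gap to the nearest array taking more than 0.71 of the whole range. Chance alone is expected to do so in about 5% of sets. In H1299*shRAD9* DBP, replicate 1 was the low array for *BUB1B* (5.09, with the next at 5.53, ratio 0.80), *TTK* (4.30 and 4.75, ratio 0.778) and *CENPF* A_24_P96780 (1.80 and 2.36, ratio 0.773). In H1299 DBP, replicate 2 was the high array for *CENPA* (4.76 and 4.33, ratio 0.846), *CENPE* (5.33 and 4.41, ratio 0.852) and *NDC80* (8.78 and 8.35, ratio 0.726), and replicate 1 was the low array for *MAD2L1* (3.60 and 4.86, ratio 0.847). In H1299 BP, replicate 2 was high for *CENPE* (5.92 and 5.15, ratio 0.859) and low for *BUB3* A_23_P320658 (5.53 and 6.13, ratio 0.777). In H1299 CTL, replicate 2 was low for *BUB1B* (5.76 and 5.85, ratio 0.729) and replicate 5 for *NUF2* (4.93 and 5.16, ratio 0.744). What set these arrays apart was not tested.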

How the results depend on the processing

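The values below are the number of member features called. Between the control lines it was 1, and it was 2 with quantile normalization, normexp, no 1.3-fold criterion or the authors' values, and 0 from a single fit over all 10 groups, with the slide as a random block or with the replicate block. In H1299*shRAD9* DBP against CTL it was 2, and 0 with a filter of 4 of 5 arrays above background, 0 with the slide as a block and 1 without the replicate block. In H1299*shRAD9* DBN against CTL it was 2, and 0 with the slide as a block. In H1299*shRAD9* DBP against BP it was 0. It was 1 with scaling to the 75th percentile, normexp, no 1.3-fold criterion or no replicate block, and 2 with quantile normalization or the authors' values. A single fit over the 5 groups of that line gave 3. In H1299*shRAD9* DBN against BN it was 1, and 0 with the filter of 4 of 5 arrays and 2 from a single fit over the 5 groups of that line. Joining both kinds of dish, an alternative chosen after seeing the data, gave 4 in 10 pairs and 2 in 5 averaged pairs for both of the last 2 comparisons. In H1299 DBP against CTL it was 1, and 0 with the 75th percentile, quantile normalization, the filter of 4 of 5 arrays or the slide as a block. In H1299 DBN against CTL and DBN against BN it was 0, and 2 and 1 from a single fit over the 5 groups of H1299. The 10 pairs gave 1 for H1299 DBP against BP and for DBN against BN.

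Leaving out each replicate gave 0 to 1 between the control lines, 0 to 2 in H1299*shRAD9* DBP and in DBN against CTL, 0 to 1 in H1299*shRAD9* DBN against BN and 0 to 0 in H1299 DBP against CTL. Between the control lines the call was lost without replicate 1, 3, 4 or 5. The replicate block, where the numbers pair the samples, changed no call beyond those given. The 7 calls of single features, each in 1 comparison, were of *CENPA*, *CENPE* and *CENPF* A_24_P96780. Over their alternative runs the call was kept in 63 and lost in 44. None changed direction under any alternative run, and *CENPA* in H1299*shRAD9* DBN against CTL stayed between -1.65 and -0.81. The other 270 counts lay within 1.5 times the reported one. The causes of these changes were not tested. The members were well above background on every array that measured them, and the part of background in these changes was not tested either.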
